A study of Mus musculus with 96 samples.

Results

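GATA6 binding was compared between mouse embryonic stem (ES) cells given Oct4 siRNA and cells given control siRNA, both after 48 h of GATA6 induction. The comparison took in all 42403 GATA6 binding regions of the deposited table, with no selection among them, and rests on 4 of the 96 samples of the series: 2 libraries with control siRNA and 2 with Oct4 siRNA. All cells were of a single clone of the KH2 line (C57BL/6 x 129/Sv) that carries a doxycycline (Dox)-inducible Gata6 cassette with an epitope tag. siRNA was introduced by nucleofection and the cells were plated at once in 1 µg/mL Dox on feeder fibroblasts, which were depleted before crosslinking. The Oct4 siRNA was a pool against Pou5f1, the gene of OCT4, and the control was a pool with no target. Chromatin was recovered with a GATA6 antibody, which sees the transgenic and the endogenous protein alike. OCT4 itself was not measured in these cells in the table, so the extent of the knock-down was not checked here.

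GATA6 is a zinc-finger transcription factor that binds the GATA motif and drives ES cells toward primitive endoderm (PrE), the extra-embryonic layer that later lines the yolk sac. OCT4 is a POU factor of pluripotent cells, and with SOX2 it binds a composite OCT:SOX motif at ES cell enhancers. Both can engage motifs on nucleosomal DNA. The comparison asks at which regions GATA6 signal, relative to library size, differs with Oct4 siRNA. Whether a difference at a region is a direct effect of OCT4 there was not tested.

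Signal is given as RPM, the reads on a region scaled to library size. Each deposited value is the mean of 2 libraries, and every one of the 42403 values of both columns could be resolved uniquely into whole reads of 2 libraries. The control libraries held 31.1 and 23.1 M reads and the Oct4 siRNA libraries 27.6 and 10.1 M, and they are called the deeper and the shallower library of their condition. The deeper libraries had 12.6% and 13.0% of their reads in regions, against 16.1% and 16.3% in the shallower. Median RPM per region was 1.45 and 1.81 with control siRNA and 1.49 and 1.89 with Oct4 siRNA, so each condition had a lower and a higher library. Profiles of libraries of one condition had a Spearman correlation of 0.960 (control) and 0.930 (Oct4 siRNA), and those of different conditions 0.843 to 0.869. Values are relative to library size, so an equal shift of GATA6 at all sites cannot be told apart from unequal recovery of chromatin between libraries.

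A few regions show the sequences behind the results below. The DNA is the plus strand of GRCm38.p6 (the assembly mm10 names), each window holds 25 bases on both sides of a motif match, and capitals mark the match with the highest score that the authors' motif search found in the region. The first windows are OCT:SOX matches of regions where GATA6 was lower with Oct4 siRNA, at chr3:122543520-122543584 in an intron of Fnbp1l, at chr12:16131191-16131255 in intergenic DNA 314 kb upstream of Trib2, at chr15:62959180-62959244 in intergenic DNA with Gsdmc as the nearest gene 849.6 kb away, at chr12:86403804-86403868 in an intron of Esrrb, and at chr3:122145496-122145560 in an intron of Abca4. In that order the matches scored 14.2, 11.01, 11.6, 6.75 and 18.1, and their centers lay 138, 56, 86, 274 and 50 bp from the GATA6 summit, so that of Esrrb is the weakest and farthest. Those of Fnbp1l, Trib2 and Gsdmc are the best scores among the 8 largest falls given below, where the lowest was 5.71.
Fnbp1l: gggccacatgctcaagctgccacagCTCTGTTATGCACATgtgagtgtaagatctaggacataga
Trib2: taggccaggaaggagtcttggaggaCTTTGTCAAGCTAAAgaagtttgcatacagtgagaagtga
Gsdmc: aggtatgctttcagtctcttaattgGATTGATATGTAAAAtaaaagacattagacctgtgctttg
Esrrb: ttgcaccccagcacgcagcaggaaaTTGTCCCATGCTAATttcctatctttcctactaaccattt
Abca4 intron: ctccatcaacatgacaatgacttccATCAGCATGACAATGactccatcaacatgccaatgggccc

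The next windows are the GATA6 matches of a pair of regions with strong GATA6 that did not pass the test, at chr14:63231332-63231394 in an intron of Gata4 and at chr12:31229368-31229430 in intergenic DNA upstream of Lamb1, and of a pair where GATA6 was higher with Oct4 siRNA, at chr5:75564237-75564299 in intergenic DNA upstream of Kit and at chr5:96322740-96322802 in intergenic DNA upstream of Fras1.
Gata4: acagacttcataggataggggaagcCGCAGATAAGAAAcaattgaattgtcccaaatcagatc
Lamb1: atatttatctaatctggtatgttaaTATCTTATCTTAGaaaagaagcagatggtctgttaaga
Kit: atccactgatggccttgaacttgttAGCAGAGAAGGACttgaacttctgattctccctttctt
Fras1: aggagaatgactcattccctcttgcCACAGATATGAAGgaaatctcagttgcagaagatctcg

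GATA6 signal was lower with Oct4 siRNA in some regions and higher in others, and the balance between them turned with the library left out. The log2 ratio of the Oct4 siRNA value to the control value, called the GATA6 change below, had a median of -0.0043, with quartiles of -0.49 and 0.51 and a range from -3.52 to 4.69. It was under -0.5 in 10497 regions (24.8%) and over 0.5 in 10728 (25.3%). These counts were 13457 and 9165 without the deeper control library, 8049 and 14403 without the shallower control library, 9661 and 13921 without the deeper Oct4 siRNA library, and 14111 and 8093 without the shallower one. To set these differences against the spread between libraries, limma was run on log2(RPM + 0.1) of the 37026 regions with a mean of at least 0.5 RPM. With a false discovery rate under 0.1 and a log2 fold over 0.5, GATA6 was lower with Oct4 siRNA in 2783 regions (7.52% of those tested) and higher in 3613 (9.76%), and in 9482 the unadjusted p was under 0.05. The median region called lower went from 3.31 to 1.37 RPM and the median region called higher from 1.18 to 3.31 RPM. These counts depend on each library: they were 616 lower and 760 higher without the deeper control library, 196 and 1928 without the shallower control library, 1904 and 3904 without the deeper Oct4 siRNA library, and 1982 and 1398 without the shallower one. Scaling by the median of ratios over regions, in place of library size, gave 5701 lower and 6227 higher, among them all regions called with library size. The labels do not say which libraries were prepared together, so both pairings were fitted as a replicate block. With deeper paired to deeper 5782 were lower and 6264 higher, and with deeper paired to shallower 649 and 1360.

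**Figure D1:**
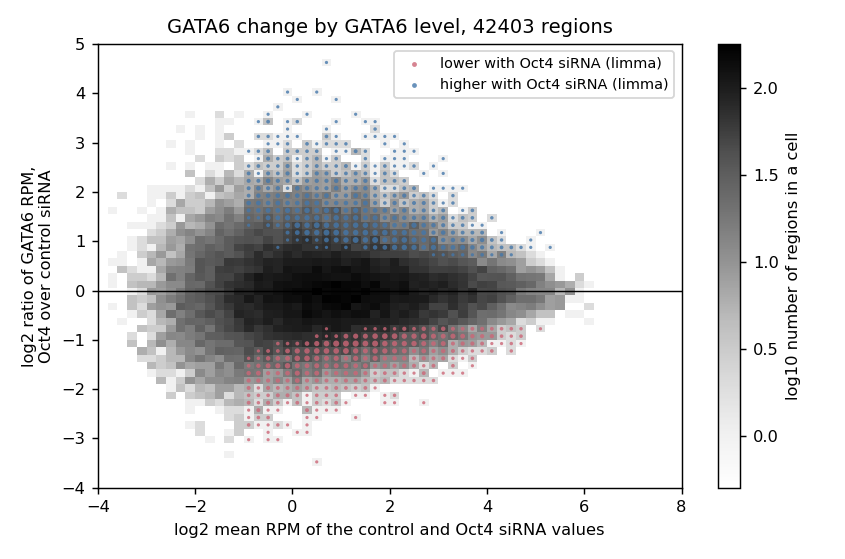
The GATA6 change (vertical axis, log2 ratio of Oct4 to control siRNA) is plotted against the log2 mean RPM of both conditions (horizontal axis), with grey cells shaded by the number of regions and colored points at cells that hold regions called by limma. The cloud is centered near 0, with 2783 regions called lower and 3613 called higher, and the largest ratios are at low and middle signal.

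OCT4 occupancy before induction was the descriptor of OCT4 most closely followed by the GATA6 change. Regions were ranked by OCT4 RPM in uninduced cells without siRNA and split into 10 groups of equal size. In the lowest decile, with a median OCT4 of 0.183 RPM, the median GATA6 change was 0.58, and it declined at each step to -0.38 in the highest decile, with a median OCT4 of 5.28 RPM. Of the tested regions of the lowest decile, 58 were called lower and 655 higher (1.93% and 21.8%), and of the highest decile 688 were called lower and 36 higher (18.2% and 0.953%), against 7.52% and 9.76% of all. Across the 42403 regions Spearman's correlation was -0.37, and it was negative on each of 20 chromosomes, between -0.44 and -0.33. Regions share their libraries and are not replicates, so these correlations describe the table. The ratio of the 2 control libraries had a correlation of -0.017 with the same OCT4 values, and the ratio of the 2 Oct4 siRNA libraries 0.0028.

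OCT4 at day 2 of induction, also without siRNA, gave a similar order. The median GATA6 change was 0.59 in the lowest decile and -0.25 in the highest, where 670 regions were called lower and 34 higher (16.0% and 0.811%). The correlation was -0.32, and between -0.39 and -0.28 on single chromosomes. In each library separately, the median log2 GATA6 RPM of the highest day 0 decile exceeded that of the lowest by 2.52 and 2.57 with control siRNA and by 1.31 and 1.38 with Oct4 siRNA. For the day 2 deciles the gaps were 4.41 and 4.48 with control siRNA and 3.43 and 3.62 with Oct4 siRNA. The conditions did not overlap in either gap, and an exact two-sided permutation test of 2 libraries against 2 cannot go below p = 0.333.

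**Figure D2:**
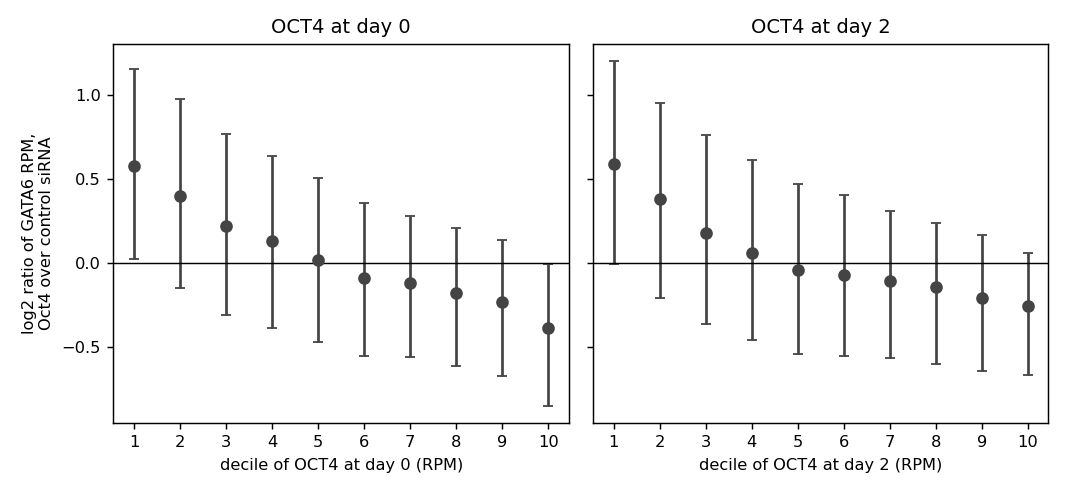
The GATA6 change (log2 ratio, vertical axis) by decile of OCT4 RPM before induction (left) and at day 2 (right), with points at the median of regions and bars from the lower to the upper quartile. The medians decline from 0.58 to -0.38 on the left and from 0.59 to -0.25 on the right, and the quartile bars of neighboring deciles overlap.

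OCT4 at the 2 times is itself correlated (Spearman 0.815), so regions were also placed on a grid of quintiles of both. Where OCT4 was in the lowest quintile at both times, the median GATA6 change was 0.62 (5782 regions). Where it was in the highest at both, the median was -0.28 (5635 regions). Of the tested regions in that corner 887 were called lower and 51 higher. Among regions with the least OCT4 before induction, values were lower as day 2 OCT4 increased: 0.32 in quintile 2 (2011 regions), -0.025 in quintile 3 (536), -0.20 in quintile 4 (138) and -0.81 in quintile 5. The last cell holds only 13 regions, all tested, of which 7 were called lower. In quintile 2 before induction, the median likewise went from 0.25 to -0.35. In the upper 3 quintiles before induction no such order was seen, and all but 2 of these 15 cells had negative medians. In the row with least OCT4 before induction, GATA6 with control siRNA rose too, from a median of 0.54 RPM in day 2 quintile 1 to 6.53 RPM in quintile 5. Over all regions the ratio of day 2 to day 0 OCT4 went weakly the other way. Its correlation with the GATA6 change was 0.077, and its top decile had the higher median, by 0.19.

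The 2 OCT4 measures were also compared within strata of each other. Within deciles of day 2 OCT4, the difference in GATA6 change between the highest and lowest decile of day 0 OCT4 was negative in 10 of 10 deciles, with a median of -0.40. Within deciles of day 0 OCT4, the day 2 difference was negative in 5 and positive in 5, from -0.75 to 0.24. GATA6 signal itself was correlated with day 2 OCT4 (0.860). Within deciles of GATA6 RPM at day 2 without siRNA, both OCT4 differences stayed negative in 10 of 10, with medians of -0.62 (day 0) and -0.77 (day 2).

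**Figure D3:**
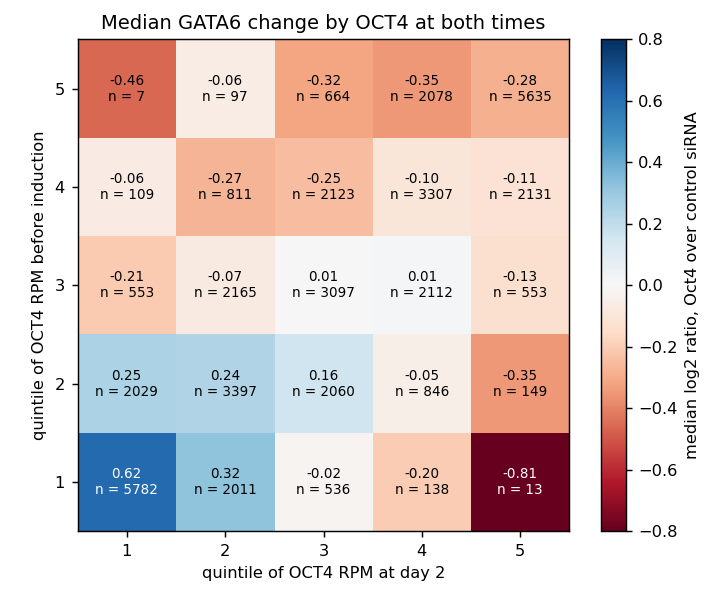
Median GATA6 change (log2 ratio, color and upper number) for each pair of quintiles of OCT4 RPM before induction (vertical) and at day 2 (horizontal), with the number of regions below. The corner with least OCT4 at both times is at 0.62, the bottom row descends to -0.81 at its right end where only 13 regions lie, and the top right corner is at -0.28.

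Regions with a good OCT:SOX match had a lower GATA6 change than other regions. Of all regions 71.5% had a match, and by quartile of its score the median change was 0.081, 0.0071, -0.035 and -0.25, against 0.11 in the 12101 regions with no match. In the top quartile 13.2% of tested regions were called lower and 5.94% higher. As for every descriptor tried, the conditions did not overlap in the gap between top and bottom quartile. It was -0.093 and -0.13 with control siRNA and -0.48 and -0.58 with Oct4 siRNA on the log2 scale. The top quartile stood apart at each level of OCT4: its median was 0.042, -0.23 and -0.34 from the lowest to the highest tertile of day 2 OCT4, where the next quartile had 0.36, -0.016 and -0.19.

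The median change also differed by the place of the OCT:SOX match. Among top quartile regions, the median change was -0.43 where the center of the match lay under 25 bp from the GATA6 summit (1574 regions), -0.39 at 25 to 75 bp, -0.17 at 75 to 200 bp and -0.10 beyond 200 bp (2183 regions). The share called lower was 19.8%, 16.9%, 10.9% and 8.96% in the same order, and the share called higher 2.0%, 4.32%, 7.90% and 7.72%. By distance to the best GATA6 match the medians of top quartile regions ran from -0.36 under 20 bp to -0.18 beyond 400 bp. Their median GATA6 with control siRNA went from 1.06 to 5.03 RPM, and no strata were taken for this distance. Over regions with any OCT:SOX match the median change was -0.039 under 20 bp and -0.068 beyond 400 bp. GATA6 signal with control siRNA also moved with the distance to the summit, from a median of 1.00 RPM under 25 bp to 4.02 RPM beyond 200 bp. The difference by distance to the summit was therefore also taken within strata. Within quintiles of GATA6 at day 2 without siRNA, the median under 25 bp was below that beyond 200 bp in each of 5, by -0.46 to -0.23, and within quintiles of region width by -0.50 to -0.29.

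The other motifs gave smaller differences. By quartile of the GATA6 motif score the median change went from 0.042 to -0.078, and among regions called lower, called higher and neither, 75.9%, 71.3% and 76.8% had a best GATA6 match that held the letters GATA on either strand (74.1% of all regions). The SOX17 motif was the one with the opposite order, with medians of -0.071, -0.013, 0.062 and 0.11 from the lowest to the highest quartile of score, and it was found in 81.6% of regions called higher against 72.7% of those called lower and 69.2% of all. SOX17 is an endoderm factor of the SOX family. For ESRRB, a nuclear receptor of naive pluripotency, the top quartile had a median of -0.25 and the lowest -0.023. ESRRB binding before induction had a correlation of -0.25 with the GATA6 change and SOX2 binding -0.32.

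By the authors' histone states of undifferentiated ES cells, active enhancers had the lowest median GATA6 change, at -0.16 (4730 regions), followed by primed enhancers at -0.091 and poised enhancers at -0.020. In the joint description given below, with OCT4, GATA6 level, width and motifs held fixed, the order turned, and active, poised and primed enhancers and promoters lay above naive regions by 0.43, 0.24, 0.20 and 0.53. Constitutive heterochromatin was at -0.0062, promoters at 0.0096, naive regions at 0.058 and facultative heterochromatin at 0.13 (9475 regions). The largest shares called higher were in naive regions, with 1046 of 7018 tested (14.9%, beside 8.49% lower), and in facultative heterochromatin, with 1121 of 8205 (13.7%, beside 6.95% lower). Promoters had the smallest shares in both directions, with 65 called lower and 48 higher of 2818. Within each state, regions with day 2 OCT4 above the median of all regions had the lower median. The widest gap was in constitutive heterochromatin, -0.38 against 0.20, where 16.1% and 3.52% of tested regions were called lower. The narrowest was in promoters, -0.0021 against 0.11. Regions over 100 kb from the nearest gene start had a median of -0.14 and 12.2% called lower, against 0.036 and 2.76% under 1 kb.

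The GATA6 profile with Oct4 siRNA ranked regions more like a later time of the induction than the control profile did. Without siRNA, GATA6 was profiled before Dox, at 5 times after it and in extra-embryonic endoderm (XEN) cells, a stable line of the PrE lineage. The control libraries correlated best with day 2, their own time, at 0.891 and 0.892, and less with day 4, at 0.714 and 0.721. The Oct4 siRNA libraries had their highest correlation with day 4, at 0.855 and 0.837, against 0.781 and 0.766 with day 2. With XEN cells the values were 0.450 and 0.458 for control siRNA and 0.667 and 0.654 for Oct4 siRNA, and with 8 h they were 0.446 and 0.439 against 0.249 and 0.239. In each of these comparisons the 2 conditions did not overlap.

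The same order held region by region. In deciles of the log2 ratio of day 4 to day 2 without siRNA, the median GATA6 change rose from -0.80 to 1.02. In the bottom decile 35.2% of tested regions were called lower and 0.0270% higher, and in the top decile 0.0525% and 50.8%. Spearman's correlation was 0.68, larger in size than for any OCT4 measure, between ratios that have no library in common. The time course classes of the authors, set by clustering GATA6 over the time points, gave medians of 0.57 for late regions, where GATA6 arrives late, -0.060 for early regions, where it arrives early and stays, and -0.39 for transient regions, where it is lost again. Of 12411 tested late regions 3070 were called higher and 158 lower, and of 12756 transient regions 1741 were called lower and 82 higher. Put the other way, 85.0% of regions called higher were late, and 62.6% of those called lower were transient. Without siRNA, regions called lower had a median GATA6 of 3.31 RPM at 8 h, 1.96 RPM at day 2 and 0.927 RPM at day 4, and 0.530 RPM in the XEN line. Regions called higher had 0.492, 0.814 and 2.55 RPM at these times and 3.63 RPM in the XEN line.

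Later time course and OCT4 were each related to the change at fixed values of the other. Within deciles of the day 4 to day 2 ratio, the difference between the highest and lowest decile of OCT4 was negative in 10 of 10 for both OCT4 times, with medians of -0.25 (day 0) and -0.27 (day 2). Within deciles of day 2 OCT4, the difference along the day 4 to day 2 ratio was positive in 10 of 10, with a median of 1.58. In late regions the median change was 0.71 in the lowest tertile of day 2 OCT4 and 0.20 in the highest. In transient regions it was -0.26 and -0.52, and in early regions 0.072 and -0.10. A least squares description of the change by both OCT4 measures, GATA6 level, width, 4 motifs and histone state accounted for 25.5% of its variance, where OCT4 at both times accounted for 14.1%, motifs alone for 6.55% and histone state alone for 1.97%. In it the coefficient per SD was -0.44 for day 0 OCT4, -0.24 for day 2 OCT4, 0.39 for region width, whose correlation taken alone was -0.13, and -0.0023 for the OCT:SOX score, which is near 0 although the score taken alone went with lower medians.

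**Figure D4:**
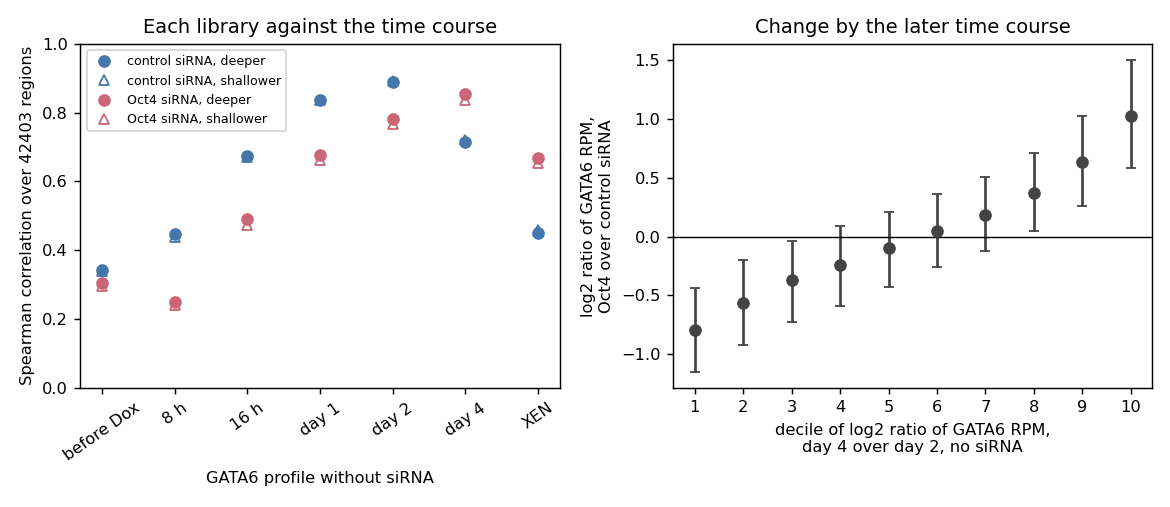
Left, Spearman correlation over 42403 regions of each siRNA library (colors for condition, symbols for library) with the GATA6 profiles without siRNA. Right, median and quartiles of the GATA6 change (log2 ratio) by decile of the log2 ratio of GATA6 at day 4 to day 2. Control libraries are highest at day 2 (0.891 and 0.892) and Oct4 siRNA libraries at day 4 (0.855 and 0.837), and the medians on the right climb from -0.80 to 1.02.

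The regions with the largest changes show both sides of this. Among regions with a mean of at least 3 RPM, the 8 with the largest fall went from between 4.79 and 10.9 RPM with control siRNA to between 1.14 and 2.21 RPM. All 8 had an OCT:SOX match, as did 81.5% of regions called lower and 71.5% of all regions. Their scores ran from 5.71 to 14.2, around the median of 8.17 over all regions with a match. The 8 were 437 to 1493 bp wide, against a median of 524 bp, and OCT4 at day 2 lay between 2.84 and 16.3 RPM. The largest was 14.0 kb upstream of Gpnmb, a melanosome glycoprotein gene, at 6.36 and 8.47 RPM in the deeper and shallower control library and 1.99 and 0.995 RPM in the Oct4 siRNA libraries. The region upstream of Trib2, a pseudokinase gene, had 6.23 and 6.83 RPM with control siRNA against 1.96 and 0.995 RPM. Both were transient, and in each the 2 conditions lay far apart in all libraries (limma log2 fold -2.30 ± 0.37 and -2.14 ± 0.37, SE, adjusted p = 2.8e-07 and 2.8e-06). Both were picked for the size of their ratio, so such a gap follows from the choice. In the intron of Fnbp1l, whose OCT:SOX match printed above scored 14.2, signal was 4.40 and 5.18 RPM with control siRNA and 1.52 and 0.995 RPM with Oct4 siRNA. OCT4 there was 0.758 RPM before induction and 4.51 RPM at day 2.

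The 8 regions with the largest rise were all late. They had between 0.582 and 1.14 RPM with control siRNA and between 5.70 and 8.92 RPM with Oct4 siRNA, and GATA6 without siRNA went from at most 1.16 RPM at day 2 to between 2.75 and 8.95 RPM at day 4. A region 10.9 kb upstream of Kit, the stem cell factor receptor gene, had 0.803 and 0.950 RPM with control siRNA and 7.80 and 8.06 RPM with Oct4 siRNA (limma log2 fold 3.04 ± 0.38, SE, adjusted p = 1.0e-11). A region 51.1 kb upstream of Fras1, which encodes an extracellular matrix protein of basement membranes, had 0.900 and 1.38 RPM against 7.40 and 10.4 RPM. One 21.6 kb upstream of Aqp7, an aquaglyceroporin gene, had 0.386 and 0.778 RPM against 4.72 and 7.66 RPM. OCT4 at day 2 was at most 1.05 RPM in the 8. All held a SOX17 match, as did 81.6% of regions called higher and 69.2% of all regions. An OCT:SOX match was found in 4 of 8, against 71.5% of all regions. The best GATA6 match held the letters GATA in 1 of 8, against 3 of 8 among the largest falls and 74.1% of all regions. All 16 regions of the largest falls and rises were called under each setting that kept all 4 libraries. They were picked by the ratio between the same siRNA values, so these calls and their adjusted p follow largely from the choice.

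Of the 4 regions with the highest OCT4 at day 2, 1 was called. It lies in an intron of Abca4, a lipid transporter gene, where the OCT:SOX match scored 18.1 and OCT4 was 69.9 RPM before induction and 50.7 RPM at day 2. As in 11182 of all 42403 regions, both Oct4 siRNA libraries lay below both control libraries for GATA6 there. Its signal was 20.5 and 25.8 RPM with control siRNA and 11.1 and 10.5 RPM with Oct4 siRNA (limma log2 fold -1.08 ± 0.32, SE, adjusted p = 0.014). The call was lost when a single library other than the deeper control was left out (adjusted p between 0.17 and 0.25) and with deeper paired to shallower (adjusted p = 0.33), and the direction was kept. The region with the most OCT4 at day 2, 35.6 kb upstream of Lamb1, had 76.9 and 98.5 RPM with control siRNA and 56.7 and 61.1 RPM with Oct4 siRNA, and did not pass (log2 fold -0.56 ± 0.31, adjusted p = 0.24). Of the settings tried, it passed only with scaling by the median of ratios (adjusted p = 4.3e-07) and with deeper paired to deeper (adjusted p = 1.8e-12), as did the regions of Amn, Klf4, Nr0b1 and Tdgf1 named by the rule for listed genes.

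Near genes of the PrE program the strongest GATA6 regions did not pass the test, nor did 82.7% of all regions tested. For each listed gene, the region within 100 kb of its start with the most GATA6 at day 2 without siRNA was taken. For 7 PrE transcription factors (Gata6, Gata4, Sox17, Sox7, Foxa2, Hnf4a, Foxq1) 0 of 7 such regions were called by limma (0 at an unadjusted p under 0.05), and the changes lay between -0.30 and 0.38. An intron region of Gata4, a close relative of Gata6, had 43.7 and 60.7 RPM with control siRNA and 44.9 and 56.9 RPM with Oct4 siRNA. The region 40.3 kb upstream of Sox17 had 41.4 and 52.8 RPM against 51.3 and 54.3 RPM. In an intron of Gata6 signal was 15.8 and 15.7 RPM against 17.9 and 17.1 RPM. In these 3 the conditions overlapped or differed by less than 0.2 on the log2 scale. Of 13 regions within 100 kb of Gata6, 11 were tested and 0 called by limma (1 at an unadjusted p under 0.05), with changes from -0.80 to 0.92.

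Some weaker regions at the same genes were called. These were picked out after their values were seen, as the regions called within 100 kb of a listed gene. Of 97 tested regions around the 7 transcription factors, 4 were called lower and 5 higher (4.12% and 5.15%, both under the 7.52% and 9.76% of all regions tested), and of these 9 calls 1 was kept with each library left out. At Foxa2, a forkhead factor of endoderm, a late region 20.4 kb downstream of the start went from 0.996 and 1.68 RPM to 3.63 and 5.27 RPM, a call lost without the deeper control library (adjusted p = 0.12). At Sox17 the called region was lower, at 27.3 and 32.9 RPM with control siRNA and 17.2 and 17.0 RPM with Oct4 siRNA, 72.6 kb from the start (adjusted p = 0.077), and lost its call with any single library left out (adjusted p between 0.22 and 0.45).

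Among genes of PrE signaling and endocytosis, 0 of 8 strongest regions were called by limma (1 at an unadjusted p under 0.05), and 3 of 83 tested regions around them were lower and 11 higher (3.61% and 13.3%, against 7.52% and 9.76% of all). All 3 lower and 9 of 11 higher calls were lost with some library left out. Lrp2 encodes megalin, an endocytic receptor of visceral endoderm, and 6 of its 20 regions were called higher. The largest was 43.6 kb upstream, at 1.22 and 1.56 RPM with control siRNA and 5.26 and 8.75 RPM with Oct4 siRNA. At Pdgfra, a receptor gene that marks PrE, both directions occurred at one gene. A region 5.63 kb upstream with OCT4 at 9.63 RPM before induction and 25.8 RPM at day 2 had 30.4 and 40.005 RPM of GATA6 with control siRNA and 15.8 and 20.7 RPM with Oct4 siRNA (log2 fold -0.94 ± 0.32, SE, adjusted p = 0.032), and lost its call with any single library left out (adjusted p between 0.11 and 0.45). A late region 89.0 kb upstream with OCT4 at 0.344 and 0.471 RPM had 0.739 and 0.518 RPM against 3.05 and 4.28 RPM (log2 fold 2.37 ± 0.41, SE, adjusted p = 3.6e-06). Next to the first, the strongest region of the gene, 8.49 kb upstream, had 31.8 and 40.5 RPM against 36.8 and 53.1 RPM. At Dkk1, an inhibitor of WNT signaling, a region with 21.1 RPM of OCT4 at day 2 was lower, from 28.5 and 35.4 RPM to 16.8 and 18.4 RPM, and its call too was lost with any single library left out (adjusted p between 0.18 and 0.42).

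For basement membrane genes, which PrE cells express strongly, 0 of 7 strongest regions were called by limma (0 at an unadjusted p under 0.05, and Col4a1 and Col4a2 share one region), with 2 of 101 tested regions around them lower and 6 higher (1.98% and 5.94%, both under the shares of all regions). All of these calls were lost with some library left out. At Serpinh1, a collagen chaperone gene, 23.9 and 30.8 RPM with control siRNA stood against 33.6 and 41.8 RPM just upstream of the start. Around Nid2, which encodes a nidogen, 3 of 10 tested regions were called higher. One of them, 25.5 kb downstream of the start, had 5.27 and 7.09 RPM with control siRNA and 10.2 and 14.6 RPM with Oct4 siRNA, a call lost without the deeper control library (adjusted p = 0.37) and without the shallower Oct4 siRNA library (adjusted p = 0.41).

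Around 16 pluripotency genes, of their strongest regions 2 of 16 were called lower, and of 143 tested regions 14 were lower and 9 higher (9.79% and 6.29%, against 7.52% and 9.76% of all regions tested). Of these, 13 of 14 lower and 9 of 9 higher calls were lost with some library left out. The median change over all 157 regions around them was -0.17, against -0.0043 for the whole table. Around Esrrb, 3 of 4 tested regions were called lower, all in its introns and all transient. The strongest, with the match printed above, had 6.84 and 8.12 RPM with control siRNA and 2.10 and 2.98 RPM with Oct4 siRNA (limma log2 fold -1.53 ± 0.36, SE, adjusted p = 0.00086). Klf2 encodes a Krüppel-like factor of naive pluripotency. A region 47.7 kb upstream of it had 9.70 and 13.7 RPM with control siRNA and 4.64 and 6.67 RPM with Oct4 siRNA (adjusted p = 0.025). That call was lost without the shallower control library (adjusted p = 0.38) and without the deeper Oct4 siRNA library (adjusted p = 0.33).

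Other pluripotency genes differed from region to region. A region 4.05 kb upstream of Sox2, the partner of OCT4, went from 2.60 and 3.59 RPM to 0.871 and 1.09 RPM, with OCT4 at 10.1 RPM before induction, and the call was lost without the shallower control library (adjusted p = 0.20). At Klf4, 2 regions were called lower and 2 higher, and the strongest had 11.6 and 15.9 RPM with control siRNA and 19.4 and 22.0 RPM with Oct4 siRNA without passing (adjusted p = 0.22). Around Tfcp2l1, a factor of naive pluripotency, 3 of 9 were called higher. At Nanog, Tbx3 and Nr0b1 a single region each was called lower. At Pou5f1, the siRNA target, 0 of 10 tested regions were called by limma (3 at an unadjusted p under 0.05), and the strongest had 9.22 and 10.9 RPM against 7.80 and 13.8 RPM.

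**Figure D5:**
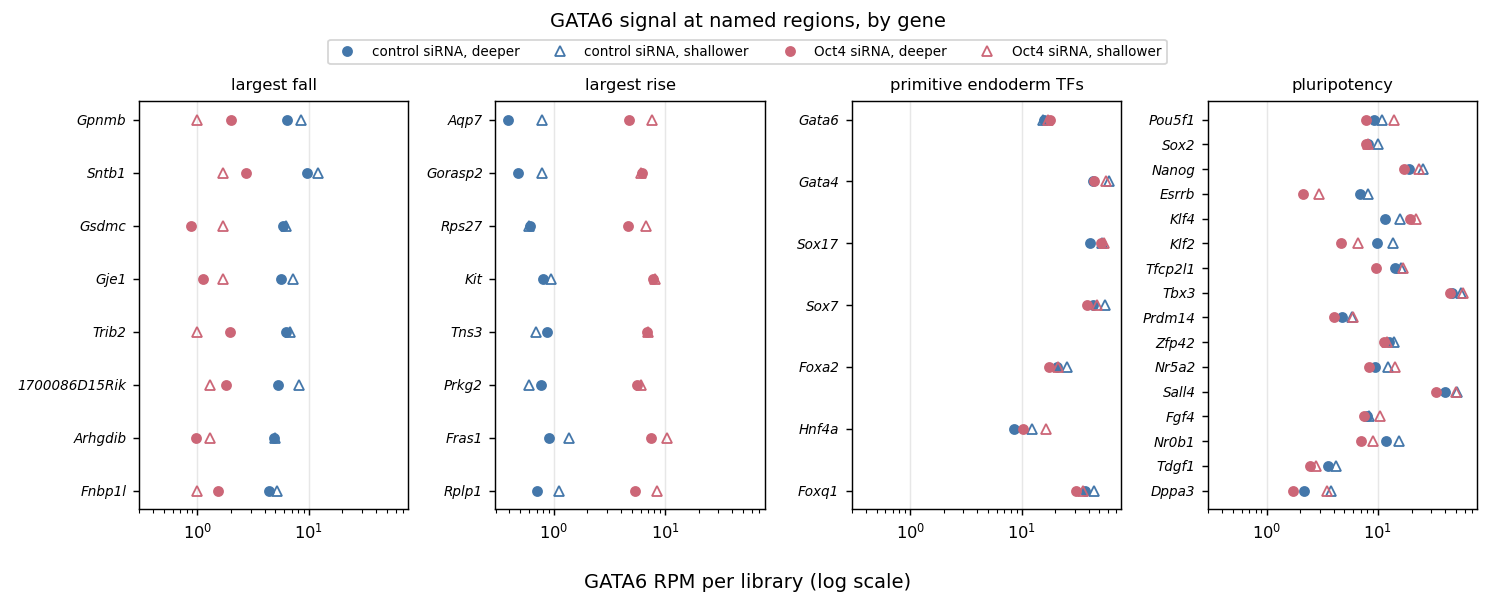
GATA6 RPM of each library (log axis, colors for condition, filled circles for the deeper and open triangles for the shallower library) at the 8 largest falls, the 8 largest rises and the strongest region of each PrE transcription factor and pluripotency gene, labelled by gene. The conditions are apart in all 16 of the largest changes, which were picked by the ratio between the conditions. Over all 42403 regions both Oct4 siRNA libraries lay above both control libraries in 10876 and below both in 11182. At the listed genes 2 of 23 regions, those of Esrrb and Klf2, were called, both lower.

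SOX17 was profiled in the same kind of cells, in 4 further samples, and its values are given beside those of GATA6. In the regions called lower for GATA6, the median SOX17 log2 ratio of Oct4 to control siRNA was -0.17, in those called higher 1.66, and in all regions 0.64, where 5.85% of regions were under -0.5 and 58.2% over 0.5. The overall shift moves with unequal libraries, since one SOX17 library with Oct4 siRNA had 15.0% of its reads in regions and the other 8.32%, against 7.16% and 7.59% with control siRNA. With the deeper of these libraries alone the medians were -0.69, 1.14 and 0.12 in the regions called lower, called higher and all, and with the shallower alone 0.20, 2.03 and 1.00, so the sign in the lower group turned with the library. Relative to all regions, the medians were -0.81 and 1.01 with the deeper of these libraries alone and -0.81 and 1.02 with the shallower alone. By decile of OCT4 before induction the SOX17 median went from 1.00 to 0.39. At the 8 largest GATA6 rises the SOX17 ratio lay between 2.79 and 4.20, and at the 8 largest falls between -1.45 and -0.15.

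The control siRNA profile was also set beside GATA6 at day 2 of Dox alone. Its log2 ratio to that profile had a median of 0.55, with quartiles of 0.057 and 0.99, and the Spearman correlation of the profiles was 0.900. The siRNA libraries were sequenced with paired ends and the others with single ends, and the nucleofected cells also differ in handling, so these sources cannot be told apart. That ratio had a correlation of -0.020 with day 2 OCT4 and -0.22 with day 0 OCT4.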

How the data were processed

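The authors trimmed reads with cutadapt, aligned them to mm10 with Bowtie2, filtered on mapping quality, removed duplicates by molecular identifiers, called peaks with MACS2 and counted reads on the peaks with bamsignals. The deposited values are RPM, scaled by the authors to library size, and each siRNA column is the mean of 2 libraries. The motif score in the deposited table is that of the best FIMO match. Of 105 columns, 14 hold per-sample values outside the mapped samples and were not used, and neither was the authors' own siRNA comparison (a DESeq2 outcome) nor the input of siRNA cells.

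Because a mean of 2 libraries is a sum of whole multiples of 2 steps, the depths and reads of both libraries were solved from each column. This was tested on simulated data of 42403 regions, where 100% of values were recovered. The lowest value was 1 read in each library, so the authors may have added a read. Which resolved library is which labelled replicate is not known. By the study's methods, replicates came from separate chromatin preparations except in named conditions, which do not include these siRNA samples.

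limma 3.58.1 (R 4.3.3, with intensity trend) tested log2(RPM + 0.1) of regions with a mean of at least 0.5 RPM, and p-values were adjusted by Benjamini and Hochberg over all regions tested. Groups of regions were described by medians and counts. Python 3.11.15, numpy 2.4.6, pandas 2.3.3 and scipy 1.17.1 were used. Genes are from GENCODE M21 and sequences from the RefSeq copy of GRCm38.p6. Named regions were the strongest within 100 kb of each listed gene, the 8 largest falls and 8 largest rises with a mean of at least 3 RPM, and the 4 with most day 2 OCT4. The comparison, lists and rules were chosen with earlier results of these data known. One listed gene is not reported here. Alternatives were other pseudocounts, filters, scalings and strata, leaving out each library and both possible pairings of libraries.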

Additional observations from a re-analysis of the deposited data

How the results depend on the processing

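By limma, 2783 regions were lower and 3613 higher. The resolved libraries carry no replicate number, so both possible pairings were fitted as a replicate block, chosen after seeing the data: deeper with deeper gave 5782 and 6264, and deeper with shallower 649 and 1360, and which pairing holds is not known. Leaving out a library gave 196 to 1982 lower and 760 to 3904 higher (616 and 760 without the deeper and 196 and 1928 without the shallower control library, 1398 higher without the shallower Oct4 siRNA library), and scaling by the median of ratios gave 5701 and 6227. The lone library of a condition is then assumed to vary like the others. Without limma, the 10497 regions under -0.5 and 10728 over 0.5 became 4850 and 5694 with a pseudocount of 1 RPM, 6577 and 6938 with a mean of at least 1 RPM, and 3831 and 4720 with a threshold of 1.

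Under the alternatives of this paragraph, the difference in median GATA6 change between the top and bottom group kept its sign. For day 0 OCT4 it was -0.96, and became -0.85 and -0.45 with a pseudocount of 0.1 and 1 RPM, -0.83 with at least 1 RPM, -0.62 within GATA6 deciles, -1.13 within width deciles, -1.03 with means, -1.16 per kb and -1.15 over input. For day 2 OCT4 it was -0.84, and became -0.73 and -0.40 with the pseudocounts, -1.02 within width deciles, -1.02 per kb and -1.09 over input. For the OCT:SOX score it was -0.33, and became -0.17 with 1 RPM added, -0.24 with at least 1 RPM and -0.21 by number of matches. For the GATA6 score it was -0.12, and became -0.068 with 1 RPM added, -0.052 within GATA6 deciles and -0.28 where day 2 OCT4 was under the median. Active enhancers minus facultative heterochromatin was -0.29, and became -0.16 with 1 RPM added, -0.23 with at least 1 RPM, -0.14 within GATA6 deciles, -0.23 within width deciles and -0.36 with means. A pseudocount shrinks ratios of low regions by construction, and for the others the cause was not tested. Leaving out each library and strata of GC content, chosen after seeing the data, moved these differences by less than the spread between libraries. In other strata and fits, given further above, the sign was not always kept. Within deciles of day 0 OCT4, the day 2 OCT4 difference was negative in 5 and positive in 5, with a median of 0.038. In the joint description active enhancers lay above naive regions by 0.43 and facultative heterochromatin by 0.088, the reverse of their medians. The coefficient of the OCT:SOX score there was -0.0023.

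Of 71 called regions around listed genes or named above, 51 lost their call under some setting. Of the losses over all settings, 137 came with a library left out and 41 with another setting, mostly the pairing of deeper with shallower, and no direction of a called region turned. The shallower Oct4 siRNA library, at 10.1 M reads, has a median of 19 reads per region, which limits low regions most.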
